A study of Mus musculus with 20 samples.

Results

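The DNA replication machinery was followed as 39 genes out of 18194 measured in mouse blood progenitors and dendritic cells. The 39 members were given as a list of symbols, and each was read from 1 probe set, the one with the highest mean over all 20 arrays. They were sorted by role into 7 groups: origin licensing (5 genes), the MCM helicase (6), helicase activation (5), the sliding clamp and its loader (6), polymerases and primase (8), single-strand binding and strand joining (4), and nucleotide supply (5).

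The cells came from bone marrow of C57BL/6 mice and were measured on Affymetrix mouse arrays, with 2 arrays in each of 10 groups. Multipotent progenitors (MPP) and common dendritic cell progenitors (CDP) had been amplified in culture. Conventional and plasmacytoid dendritic cells (cDC and pDC) had been differentiated from such amplified progenitors, and in vivo CDP were taken from bone marrow. A separate series of amplified CDP was untreated (0 h) or exposed to TGF-β1, a signalling protein, for 4, 8, 12 or 24 h, with no untreated culture at the later times, so TGF-β1 and hours in culture cannot be told apart. The labels name no genetic change in any group and do not say whether the 2 samples of a group came from separate mice or cultures. The p-values therefore measure only the spread between these samples, which may be technical.

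A cell copies its DNA once per division. The origin recognition complex, with Cdc6 and Cdt1, loads the ring of Mcm2 to Mcm7 onto DNA, and Cdc45, the GINS complex and Mcm10 turn that ring into an active helicase. Primase and polymerase alpha then start new strands, polymerases delta and epsilon extend them on the Pcna clamp, Fen1 and Lig1 finish the lagging strand, and ribonucleotide reductase and its partner enzymes supply the nucleotides. Many of these genes are textbook targets of the E2F transcription factors, and their transcripts are abundant in dividing cells and scarce in resting ones. In bulk RNA, fewer cells in division and less of these transcripts per cell cannot be told apart.

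Because E2F sites are the best known shared feature of these promoters, the RefSeq promoter of each member (GRCm38.p6, 250 bases before to 50 after the start site) was searched for 4 E2F-type words, TTTCCCGC, TTTGGCGC, TTTCGCGC and TTTGCCGC, on both strands. The reverse strand of TTTGGCGC can overlap TTTCGCGC by its last letters, and such overlaps were counted for both words. A promoter was listed for 33 members, and 13 of them (39.4%) held at least 1 word, against 2.61% of the 27025 genes with a promoter of this length. The word CCAAT, used by another widespread promoter factor, was in 21 of the 33 (63.6%) against 41.1% of all genes. A match describes letters and is not evidence of binding. In 8 members a word lay before the start site, and these stretches are printed 5′ to 3′ on the gene's strand, with the words in capitals, because the words were found in a larger share of members than of all genes, a feature that did not choose the members. They are chr4:108579397-108579453 (plus strand) for Orc1, chr11:98907983-98908050 (plus) for Cdc6, chr8:75109326-75109397 (plus) for Mcm5, chr1:128359715-128359845 (minus) for Mcm6, chr5:138172011-138172078 (minus) for Mcm7, chr8:95633488-95633555 (plus) for Gins3, chr5:151651209-151651248 (minus) for Rfc3 and chrX:93632256-93632323 (minus) for Pola1.
Orc1: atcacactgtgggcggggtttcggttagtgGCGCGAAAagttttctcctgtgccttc
Cdc6: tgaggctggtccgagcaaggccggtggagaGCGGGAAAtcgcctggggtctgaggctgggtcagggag
Mcm5: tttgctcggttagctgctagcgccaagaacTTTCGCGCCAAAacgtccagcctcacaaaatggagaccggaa
Mcm6: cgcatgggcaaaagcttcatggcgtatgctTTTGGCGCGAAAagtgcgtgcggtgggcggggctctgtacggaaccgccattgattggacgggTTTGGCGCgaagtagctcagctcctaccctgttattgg
Mcm7: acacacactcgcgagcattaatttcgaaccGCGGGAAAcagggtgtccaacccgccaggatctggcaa
Gins3: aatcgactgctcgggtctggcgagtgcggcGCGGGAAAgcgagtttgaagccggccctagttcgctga
Rfc3: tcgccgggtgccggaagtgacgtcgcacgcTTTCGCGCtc
Pola1: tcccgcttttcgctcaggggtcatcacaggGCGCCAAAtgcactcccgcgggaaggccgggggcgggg
Mcm6 held 3 words, 2 of them overlapping, and Mcm5 held 2 that overlap. Counted from the start site, the Orc1 word began at position -27, and the words of Cdc6 and Pola1 both began at position -138. The other 5 members with a word held it only from the start site on.

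Values are deposited log2 signals, in which a difference of 1 is 2-fold. A gene was tested if its signal was above 5 on at least 2 arrays of a fit, which all 39 members passed in every fit. A gene is said to have risen or fallen when limma's two-sided p, adjusted by Benjamini-Hochberg over all genes tested, was below 0.05. Differences carry limma's standard error (SE), with 2 arrays a group. The level of one gene is not compared with that of another, since probe sets differ in brightness. The 10 arrays of the TGF-β1 series sit on another scale than the rest (median over all probe sets 5.29 to 5.36, against 2.46 to 2.52), so no level is compared across the 2 sets. Of the markers of the labelled cell types, some followed the labels: on the pDC arrays Siglech was 13.2 and 13.2 and Ccr9 14.0 and 13.2, and on the cDC arrays H2-Ab1 was 14.2 and 14.1 and Cd83 12.3 and 11.9. Cd34, a progenitor marker, was 11.5 and 11.2 in MPP and 9.17 and 9.16 in CDP, and at most 7.25 in cDC and pDC. Others did not: Itgax, a cDC marker, was 11.1 and 11.3 in pDC and 10.6 and 10.4 in cDC, and Kit, a progenitor marker, was 4.75 and 5.32 in CDP and 11.3 and 10.9 in cDC. Markers of B, T and NK and erythroid cells had no gene above 5 on both arrays of MPP, CDP, cDC or pDC.

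The question of the first comparison is what happens to the replication genes along the path from MPP through CDP to cDC and pDC. Between MPP and CDP no member rose or fell (0 of 39, while 7.5% of all genes were called in either direction). By unadjusted p below 0.05, 1 member differed, Mcm4, beside 1792 of all 8901 genes. The median difference over members, CDP minus MPP, was 0.12, against 0.00 over all genes tested. In cDC 36 of 39 members were lower than in CDP, where 29.3% of all genes fell, and in pDC 36 of 39 were lower, where 31.6% of all genes fell. The median member differed from CDP by -1.44 in cDC and by -2.46 in pDC, and over all genes by -0.16 and -0.14. No member rose in either dendritic cell type.

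In all 39 members the means of both dendritic cell types lay below those of both cultured progenitors. In 36 of 39 the pDC mean was the lowest of the 4, the others being Rfc1, Rfc5 and Pold2. A fall of at least 2-fold was measured for 31 members in cDC and 36 in pDC, and a fall of at least 4-fold for 6 in cDC and 25 in pDC. The 4 members outside the 35 that fell in both cell types were Pold1, Tyms, Pola2 and Rfc1. Probe sets of the members that were not used for the levels were counted if above 5 on at least 2 of the MPP, CDP, cDC and pDC arrays. Of these, 33 of 33 were lower in cDC than in CDP and 31 of 33 in pDC. Among them a probe set each of Orc1, Orc2, Gins1 and Mcm3 passed only through MPP and CDP arrays. The probe set used for Orc1, which is among the 36 called in each cell type, did so as well. For all of these the lower value in dendritic cells was set by the filter.

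**Figure D1:**
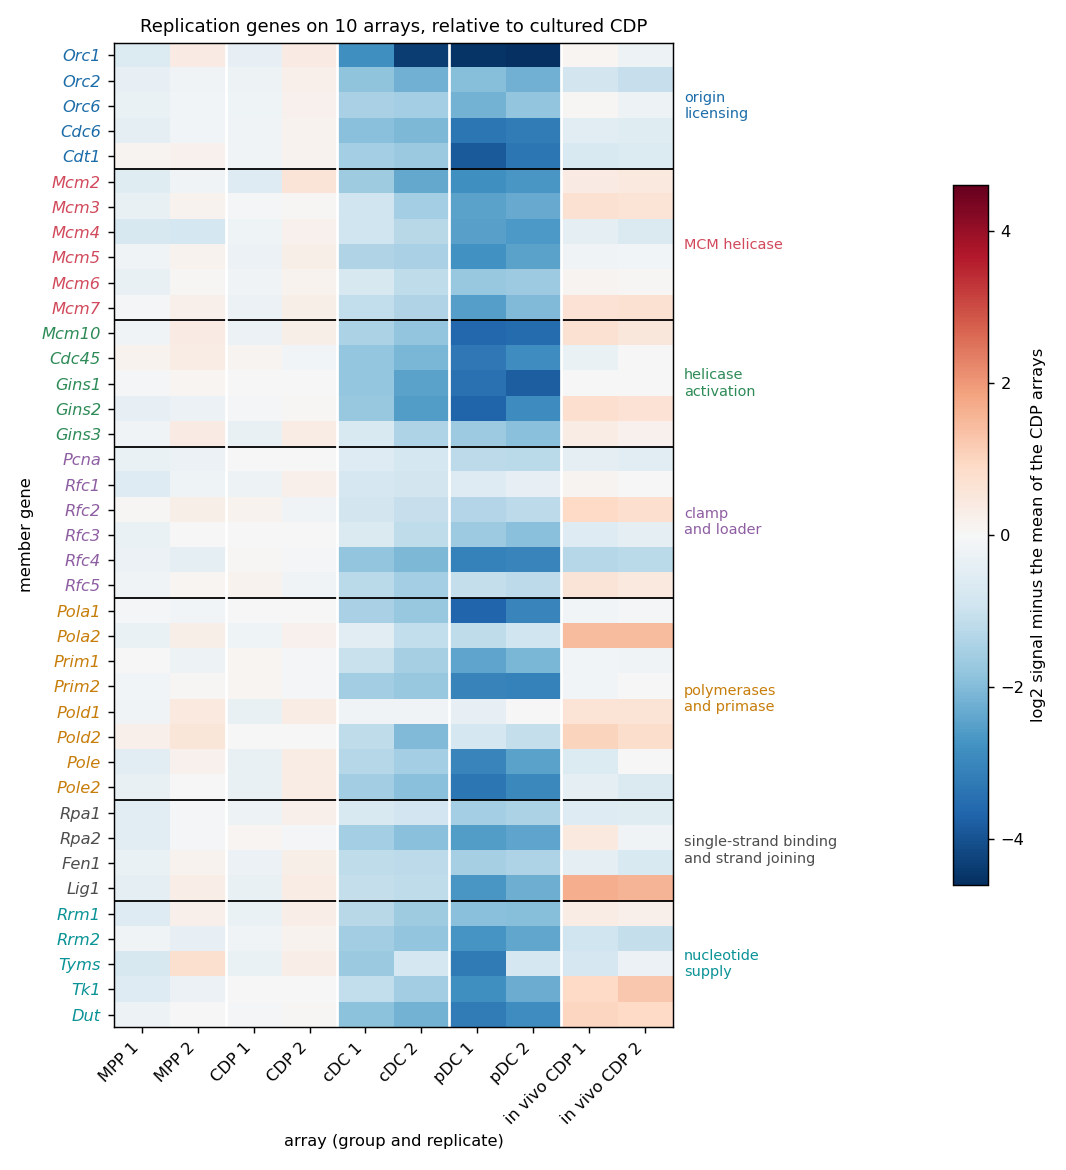
Log2 signal of the 39 members (rows, grouped and coloured by role) on each of 10 arrays (columns), as the difference from the mean of the 2 cultured CDP arrays; blue is lower and red is higher. The 2 cDC columns are blue in most rows, the 2 pDC columns are darker blue, and the 2 in vivo CDP columns hold both colours.

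By median difference from CDP, origin licensing and helicase activation were the lowest of the 7 roles in both dendritic cell types. All 5 licensing genes fell in both, with differences from -1.52 to -3.60 in cDC and from -1.98 to -4.55 in pDC. Orc1, the largest subunit of the origin recognition complex, read 6.50 and 7.52 on the MPP arrays, 6.75 and 7.53 in CDP, 4.31 and 2.77 in cDC, and 2.63 and 2.55 in pDC. The cDC and pDC arrays lay below every progenitor array and under the level of 5, so the fall is stated as at least 4.41-fold in each. Its fitted differences were -3.60 ± 0.56 and -4.55 ± 0.56 (SE). Its probe set passed the filter only through MPP and CDP arrays. The lower value in dendritic cells was therefore set by the filter, and its p-values are not given. Cdc6, which helps to load the MCM ring, read 10.55 and 10.85 on the MPP arrays, 10.81 and 11.13 in CDP, 9.05 and 8.90 in cDC, and 7.63 and 7.76 in pDC. Cdt1, its partner in loading, read 13.17 and 13.27 on the MPP arrays, 12.90 and 13.23 in CDP, 11.48 and 11.37 in cDC, and 9.20 and 9.73 in pDC. Both were lower in cDC than in CDP and lowest in pDC, with no overlap between CDP, cDC and pDC arrays. Orc2 did not follow that order: it read 9.10 and 9.31 on the MPP arrays, 9.26 and 9.73 in CDP, 7.66 and 7.30 in cDC and 7.52 and 7.29 in pDC, and the 2 cell types overlapped.

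All 6 MCM genes, the subunits of the helicase ring, fell in both cell types, by medians of -1.25 in cDC and -2.48 in pDC. Mcm2 had the lowest difference in each and read 9.46 and 9.89 on the MPP arrays, 9.43 and 10.64 in CDP, 8.38 and 7.68 in cDC, and 7.20 and 7.34 in pDC. Its 2 CDP arrays stood further apart than those of any other MCM gene, and its difference in cDC was -2.0 ± 0.42 (SE; limma adjusted p = 0.0081). Mcm6, with 3 E2F-type words, fell least of the 6: it read 12.57 and 12.93 on the MPP arrays, 12.72 and 13.07 in CDP, 12.15 and 11.72 in cDC, and 11.17 and 11.23 in pDC. Mcm5 read 14.01 and 14.31 on the MPP arrays, 13.87 and 14.44 in CDP, 12.79 and 12.66 in cDC, and 11.38 and 11.70 in pDC, again with no overlap.

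All 5 genes that activate the helicase fell in both, by medians of -1.93 in cDC and -3.30 in pDC. Gins1, a GINS subunit, read 10.98 and 11.19 on the MPP arrays, 11.11 and 11.06 in CDP, 9.32 and 8.63 in cDC, and 7.65 and 7.30 in pDC. Gins2 read 7.64 and 7.77 on the MPP arrays, 7.97 and 8.09 in CDP, 6.27 and 5.46 in cDC, and 4.34 and 5.12 in pDC. In both genes every pDC array lay below every cDC array, and their differences from CDP in pDC were -3.61 ± 0.26 (SE; limma adjusted p = 9.2e-05) and -3.30 ± 0.34 (adjusted p = 0.000336). Mcm10, which binds the active helicase, read 8.61 and 9.16 on the MPP arrays, 8.5 and 9.03 in CDP, 7.31 and 6.94 in cDC, and 5.16 and 5.24 in pDC. Cdc45 went from 8.51 and 8.70 on the MPP arrays, 8.47 and 8.25 in CDP to 6.59 and 6.27 in cDC and 5.07 and 5.50 in pDC. The pDC values of Mcm10, Cdc45 and Gins2 lie close to the level of 5, where folds are uncertain.

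The clamp and its loader fell less as a group, with medians of -0.93 in cDC and -1.25 in pDC, and they differed among themselves. Pcna, the sliding clamp, read 14.02 and 14.03 on the MPP arrays, 14.30 and 14.32 in CDP, 13.71 and 13.49 in cDC, and 13.12 and 13.08 in pDC, the smallest fall of the 6 genes in cDC (-0.71). Rfc4, a loader subunit, read 11.51 and 11.33 on the MPP arrays, 11.83 and 11.74 in CDP, 9.96 and 9.73 in cDC, and 8.68 and 8.76 in pDC, with differences of -1.94 ± 0.17 (SE; limma adjusted p = 0.000283) and -3.06 ± 0.17 (adjusted p = 3.31e-05). Rfc1, the large loader subunit, read 9.12 and 9.53 on the MPP arrays, 9.46 and 9.96 in CDP, 8.96 and 8.85 in cDC, and 9.12 and 9.34 in pDC. It fell in cDC, and its pDC difference of -0.48 ± 0.24 did not pass (limma adjusted p = 0.129). Subunits of one loader thus differed from CDP by amounts from -0.48 to -3.06 in pDC.

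Of the 8 polymerase and primase genes, 6 fell in cDC and 7 in pDC. Pola1, the catalytic subunit of polymerase alpha, read 10.49 and 10.43 on the MPP arrays, 10.55 and 10.57 in CDP, 9.06 and 8.82 in cDC, and 6.91 and 7.53 in pDC. Pole2, a subunit of polymerase epsilon, read 10.19 and 10.54 on the MPP arrays, 10.22 and 10.88 in CDP, 8.95 and 8.63 in cDC, and 7.24 and 7.58 in pDC. Prim2, the large primase subunit, read 9.29 and 9.45 on the MPP arrays, 9.48 and 9.34 in CDP, 7.80 and 7.66 in cDC, and 6.32 and 6.29 in pDC. Of CDP, cDC and pDC, these 3 genes were highest in CDP and lowest in pDC, without overlap. Pold1, the catalytic subunit of polymerase delta, was the exception, at 10.86 and 11.47 on the MPP arrays, 10.69 and 11.35 in CDP, 10.84 and 10.85 in cDC, and 10.64 and 10.99 in pDC. Its groups overlapped, and its differences were -0.17 ± 0.30 in cDC and -0.21 ± 0.30 in pDC (SE; limma adjusted p = 0.658 and 0.586).

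All 4 genes of single-strand binding and strand joining fell in both. Rpa2, a subunit of the protein that coats single-stranded DNA, read 9.80 and 10.18 on the MPP arrays, 10.37 and 10.18 in CDP, 8.72 and 8.36 in cDC, and 7.70 and 7.86 in pDC. Lig1, the ligase that seals Okazaki fragments, read 9.44 and 10.16 on the MPP arrays, 9.50 and 10.21 in CDP, 8.77 and 8.70 in cDC, and 7.19 and 7.59 in pDC. Neither gene had overlapping arrays between the 3 groups.

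Of the 5 nucleotide genes, 4 fell in both. Dut, which removes dUTP, read 11.14 and 11.37 on the MPP arrays, 11.30 and 11.44 in CDP, 9.49 and 9.20 in cDC, and 8.16 and 8.52 in pDC. Rrm2, the small subunit of ribonucleotide reductase, read 13.46 and 13.23 on the MPP arrays, 13.45 and 13.77 in CDP, 12.02 and 11.78 in cDC, and 10.91 and 11.23 in pDC. Both were lower in cDC than in CDP and lowest in pDC, without overlap. Tyms, which makes thymidylate, read 5.72 and 7.18 on the MPP arrays, 6.13 and 6.77 in CDP, 4.73 and 5.63 in cDC, and 3.20 and 5.63 in pDC. Its probe set was dim and its replicates spread widely (SE 0.83), and it passed in neither cell type (limma adjusted p = 0.247 and 0.077).

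**Figure D2:**
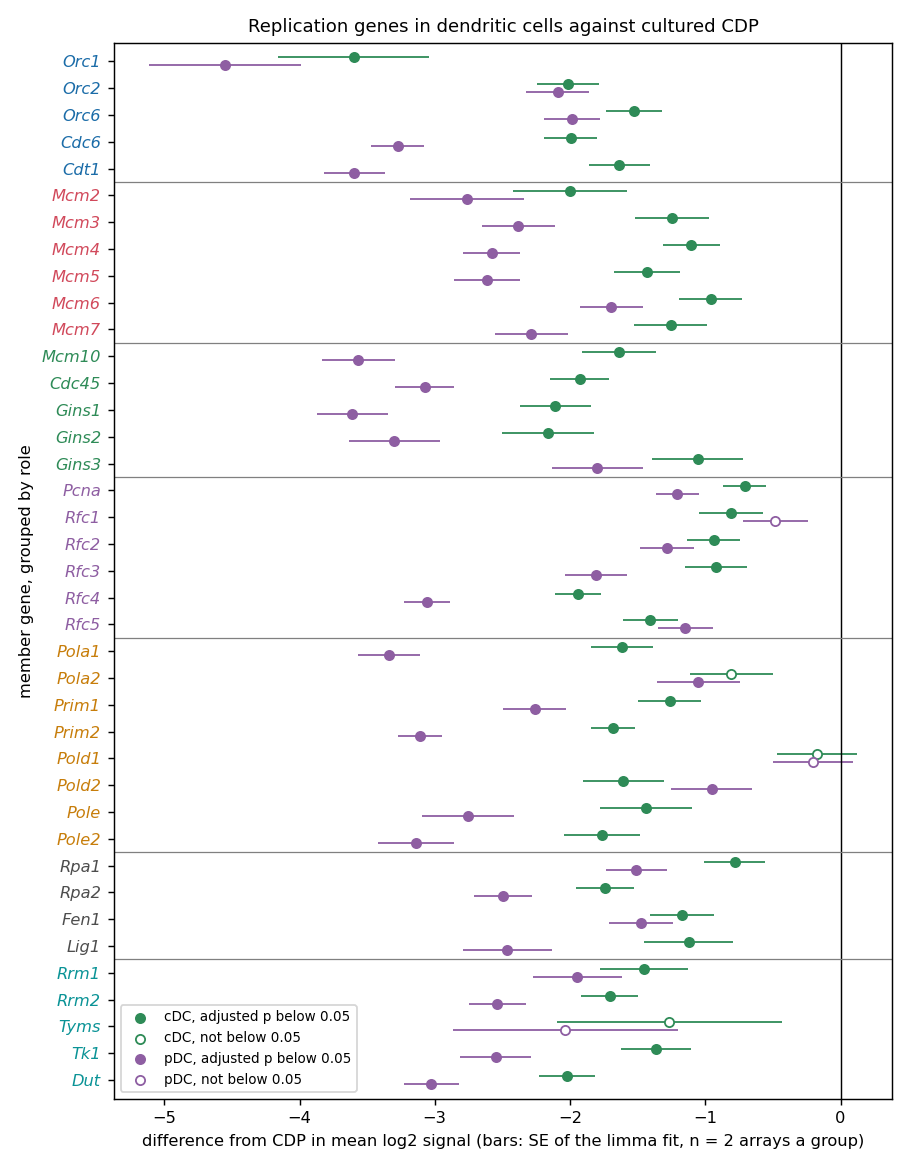
Difference from cultured CDP in mean log2 signal (x axis) for the 39 members (y axis, grouped and coloured by role) in cDC (green) and pDC (purple), with limma's SE as bars and 2 arrays a group; filled points have an adjusted p below 0.05. Purple points lie left of green in 36 rows, the other rows being Rfc1, Rfc5 and Pold2, and Pold1 lies near 0 in both.

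Tested directly, 22 of 39 members were lower in pDC than in cDC, where 12.8% of all genes were lower, and none was higher at this threshold. By unadjusted p below 0.05, 25 members differed, beside 3281 of all 8901 genes. The median member difference, pDC minus cDC, was -0.95, against 0.00 over all genes. The lowest were Cdt1 at -1.96 ± 0.23 (SE; limma adjusted p = 0.00106), Mcm10 at -1.92 ± 0.27 (adjusted p = 0.00258) and Pola1 at -1.72 ± 0.23 (adjusted p = 0.00202). Pold2, Rfc1 and Rfc5 lay on the other side of 0 without passing, at 0.65 ± 0.30, 0.33 ± 0.24 and 0.26 ± 0.20. Without the first cDC array 8 members were lower and Pold2 was higher, and without the first pDC array 8 members were lower. These 8 were Cdc6, Cdt1, Mcm4, Mcm10, Gins1, Rfc4, Pola1 and Prim2 in each case. How far the count over all genes moved under the alternatives is given at the end.

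Markers of other cell types moved along this path too. The summed signal of 9 granulocyte genes, among them Mpo, Elane and S100a8, was 16.9 to 17.1 (log2 of the sum) in MPP, 14.3 to 14.9 in CDP, 7.89 to 7.92 in cDC and 7.76 to 8.02 in pDC. All 9 were above 5 on both MPP arrays, 6 of 9 in CDP, and 1 of 9 (Prtn3) in each dendritic cell type. The sum of 4 mast cell and basophil genes was 12.2 in MPP, with all 4 above 5 on both arrays. It was 6.96 to 7.41 in CDP, 6.54 to 7.37 in cDC and 4.63 to 4.69 in pDC. That of 4 monocyte and macrophage genes was 9.95 to 10.2 in MPP and 10.9 to 11.8 in CDP. It was 11.8 in cDC and 11.1 to 11.4 in pDC. The part of these cells in the fall of the replication genes was not tested.

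In vivo CDP were set against cultured CDP and MPP to see how the culture compares with the marrow. A different kit was used to extract the in vivo RNA, and 50 ng went into a 3′ IVT labelling kit in place of 1 µg into a one-cycle kit, so method and source of the cells cannot be told apart. Against cultured CDP 6 members were higher, where 27.6% of all genes rose, and 6 were lower, where 19.5% of all genes fell. Both shares, 6 of 39, are below those of all genes. The median member difference was -0.08, against 0.10 over all genes.

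The members that rose were Lig1, Pola2, Tk1, Dut, Pold2 and Rfc2. Lig1 read 11.52 and 11.42 in vivo against 9.50 and 10.21 in cultured CDP, a difference of 1.62 ± 0.31 (SE; limma adjusted p = 0.00336). Pola2, the second subunit of polymerase alpha, read 9.53 and 9.55 against 7.89 and 8.26, a difference of 1.46 ± 0.28 (adjusted p = 0.00372). Tk1, the thymidine salvage kinase, read 10.38 and 10.73 against 9.46 and 9.50. In all 3 both in vivo arrays lay above both cultured arrays. For Rfc2 the probe set used differed by 0.86, but its other probe sets by -0.27 and -0.30.

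The members that fell were Rfc4, Rrm2, Orc2, Cdt1, Cdc6 and Pcna. Rfc4 read 10.46 and 10.55 in vivo against 11.83 and 11.74, a difference of -1.28 ± 0.16 (SE; limma adjusted p = 0.000574). Rrm2 read 12.71 and 12.51 against 13.45 and 13.77, with both in vivo arrays lower. Its other probe sets differed by 0.16 and -0.99. The other Cdt1 probe set above 5 differed by 0.50, opposite in sign to the one used (-0.66). The other probe sets of Rfc4 and Orc2 were lower in vivo as well. Of the licensing genes, 3 of 5 fell by the probe sets used, and the other 2, Orc1 and Orc6, had arrays that overlapped between the groups. The other Orc1 probe set differed by -2.19 without overlap, and was under 5 in vivo. No MCM gene and no helicase activation gene passed by the probe sets used. Other MCM probe sets went both ways. For Mcm5 another differed by 0.84 (used -0.14), and for Mcm3 another by -1.22 (used 0.67). Without the second in vivo array 4 members were higher and 2 were lower, namely Lig1, Pola2, Dut and Rfc2 on one side and Rfc4 and Rrm2 on the other.

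Against MPP 8 members were higher in vivo, where 29.2% of all genes rose, and 4 were lower, where 21.1% of all genes fell. Lig1, Pola2, Tk1, Dut and Rfc2 rose here as well, with Gins2, Mcm3 and Rfc5, and the lower members were Rfc4, Cdt1, Rrm2 and Orc2. For Rfc2, Mcm3, Cdt1 and Rrm2 another probe set above 5 went the other way. The 2 comparisons share the in vivo arrays, so they are not separate evidence. Only 6 members passed without the first MPP array, and 6 without either in vivo array. The granulocyte sum was 15.4 to 15.8 in vivo, between MPP and cultured CDP, and its part in these differences was not tested.

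**Figure D3:**
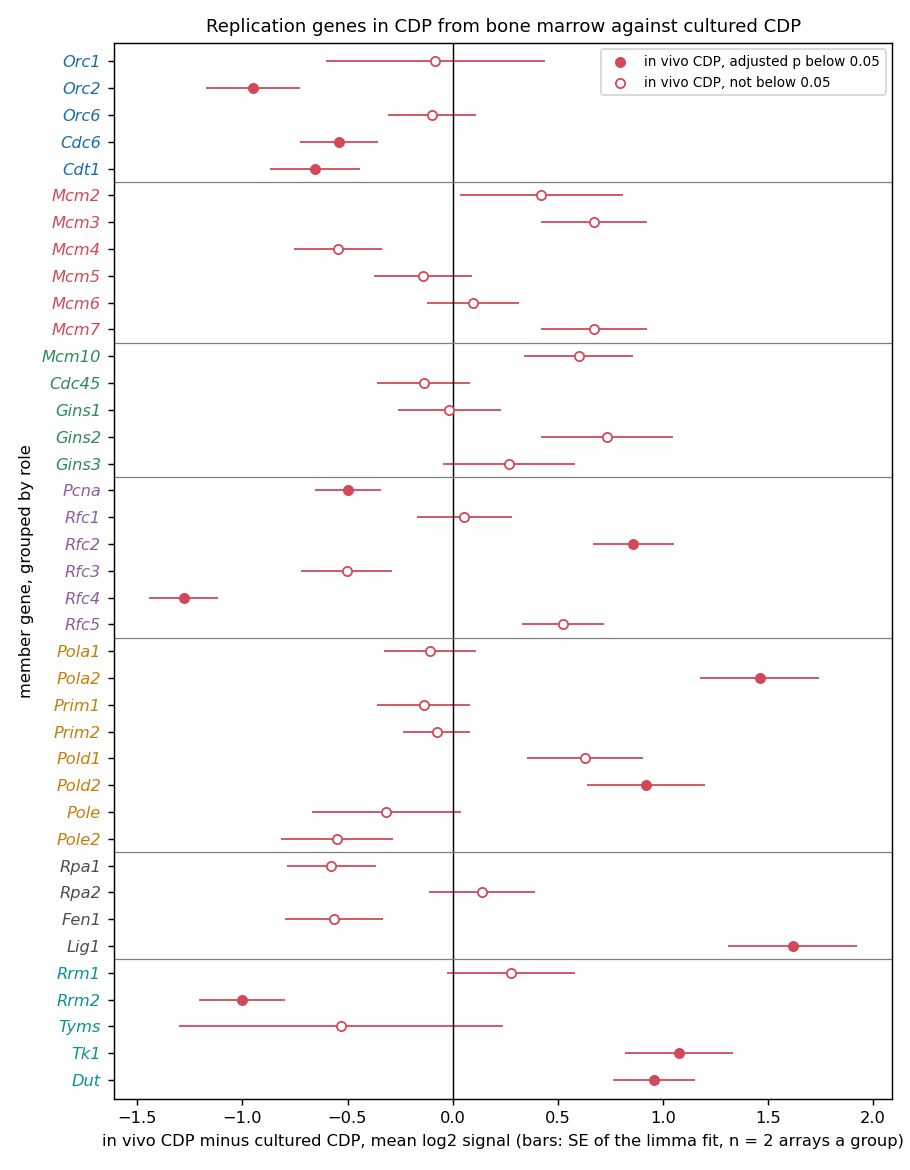
Difference in mean log2 signal, in vivo CDP minus cultured CDP (x axis), for the 39 members (y axis, grouped and coloured by role), with limma's SE as bars and 2 arrays a group; filled points have an adjusted p below 0.05. The 6 filled points right of 0 and the 6 left of 0 include none of the MCM helicase or helicase activation genes, and Lig1 at 1.62 and Rfc4 at -1.28 are the outermost.

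The TGF-β1 series asks when, if at all, replication genes change as CDP are exposed to the factor. At 4 h no member had changed (0 of 39, 0.648% of all genes called; no member had an unadjusted p below 0.05), and the median difference from 0 h was 0.04. At 8 h the count was 0 (1.55% of all genes called) with a median of -0.26. At 12 h it was 0 (5.37% of all genes called) with a median of -0.37. By unadjusted p below 0.05, 6 members differed at 8 h and 10 at 12 h. Over all 12656 genes, 1110 did so at 4 h, 1401 at 8 h and 2303 at 12 h. At 24 h 17 of 39 members were lower than at 0 h, where 8.42% of all genes fell, and none was higher. The median member difference at 24 h was -0.87, against 0.00 (-0.0007) over all genes, and 16 members were down at least 2-fold. By mean, 24 h was the lowest of the 5 times in 35 members.

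The replicate numbers of this series were taken to pair its samples by their values, as given with the processing. The counts from a fit blocked on that number therefore follow. At 4 h the blocked fit still called no member (0.253% of all genes fell). At 8 h it called Orc1 and Mcm10 as lower (1.68% of all genes fell), and at 12 h Orc1, Mcm10 and Dut (4.61% of all genes fell). At 24 h it called 27 members as lower, among them all 17 of the fit without the block (13.9% of all genes fell).

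Of the 6 members with an unadjusted p below 0.05 at 8 h, 4 were licensing genes. Orc1 read 8.80 and 8.35 at 0 h, 8.51 and 7.96 at 4 h, 8.02 and 7.08 at 8 h, 7.82 and 7.40 at 12 h, and 6.92 and 6.73 at 24 h. From 8 h on both arrays lay below both 0 h arrays. The difference at 24 h was -1.75 ± 0.34 (SE; limma adjusted p = 0.01), and those at 8 h and 12 h were -1.02 and -0.97 (adjusted p = 0.263 and 0.177, and 0.0225 and 0.0139 with the block). Cdc6 read 10.53 and 10.22 at 0 h, 10.43 and 10.22 at 4 h, 9.95 and 9.36 at 8 h, 9.88 and 9.76 at 12 h, and 9.05 and 9.01 at 24 h, and again no array from 8 h on overlapped with 0 h. Its 24 h difference was -1.35 ± 0.22 (SE; adjusted p = 0.00475). Orc6 fell by 1.10 at 24 h. Cdt1, the other loader, read 12.54 and 12.47 at 0 h and 12.07 and 11.89 at 24 h, a difference of -0.52 ± 0.22. Over all 10 arrays it passed with the block (limma adjusted p = 0.0477) and not without it (adjusted p = 0.141). Without replicate 1 of 4, 12 and 24 h its difference was -0.61, and its other probe set above 5 differed by -1.07.

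Of the MCM genes, Mcm3, Mcm6 and Mcm2 fell at 24 h. Mcm3 read 12.12 and 11.78 at 0 h, 10.97 and 11.85 at 4 h, 11.86 and 11.52 at 8 h, 11.16 and 11.49 at 12 h, and 10.42 and 10.83 at 24 h. Both 24 h arrays were the lowest of the 10, but the first 4 h array was also low. Its 24 h difference was -1.33 ± 0.31 (SE; limma adjusted p = 0.0219). Mcm5, which fell in both dendritic cell types, read 12.44 and 12.36 at 0 h and 12.50 and 11.99 at 24 h. Those arrays overlapped, and its difference of -0.15 ± 0.22 did not pass with the block either (limma adjusted p = 0.705, and 0.511 with it). Without replicate 1 of 4, 12 and 24 h its difference was -0.41 (adjusted p = 0.0927), and its other 2 probe sets above 5 differed by -0.97 and -0.51.

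Of the helicase activation genes 4 of 5 fell, and of the licensing genes 3 of 5. With the block these counts were 4 and 5. Gins1 read 10.59 and 10.85 at 0 h, 10.61 and 10.86 at 4 h, 10.24 and 10.29 at 8 h, 10.01 and 10.49 at 12 h, and 9.43 and 9.57 at 24 h. The 2 arrays at 24 h were the lowest of the 10, and the difference was -1.22 ± 0.20 (SE; limma adjusted p = 0.00528). Mcm10 read 9.91 and 9.61 at 0 h, 9.27 and 9.29 at 4 h, 9.21 and 8.89 at 8 h, 9.26 and 8.97 at 12 h, and 8.83 and 8.41 at 24 h. It was already below both 0 h arrays at 4 h, but the 4 h difference of -0.48 ± 0.21 did not pass (adjusted p = 0.587). Gins2 and Cdc45 fell by 1.10 and 1.06 at 24 h, and Gins3, the remaining gene, differed by -0.33 ± 0.28 (adjusted p = 0.504). Without the 3 arrays with low 5′ signal, described with Tk1, the difference of Gins3 was -0.58.

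Among the remaining roles, Rfc4 fell by 1.02, Pold2 by 1.68, Pola2 by 1.18, Pole2 by 0.99, Rpa2 by 1.00, Rrm1 by 0.77 and Dut by 1.43 at 24 h. Dut read 12.70 and 12.56 at 0 h, 12.09 and 12.43 at 4 h, 12.26 and 12.05 at 8 h, 11.64 and 12.07 at 12 h, and 10.97 and 11.43 at 24 h, so that every later array lay below both 0 h arrays. Its 24 h difference was -1.43 ± 0.23 (SE; limma adjusted p = 0.00466). Rpa2 read 10.51 and 10.41 at 0 h, 10.53 and 10.56 at 4 h, 10.23 and 9.98 at 8 h, 9.88 and 10.21 at 12 h, and 9.35 and 9.57 at 24 h, with all arrays from 8 h on below both 0 h arrays. Rpa1, the large subunit of the same complex, lay above 0 h throughout by the probe set used. It read 12.44 and 12.37 at 0 h and 12.95 and 12.64 at 24 h. Its 24 h difference did not pass (0.39 ± 0.20, limma adjusted p = 0.232, and 0.0882 with the block). By its other probe set the 24 h difference was -0.09. Pold2, a small subunit of polymerase delta, read 10.53 and 10.57 at 0 h, 9.16 and 10.51 at 4 h, 10.27 and 10.06 at 8 h, 9.32 and 9.99 at 12 h, and 8.47 and 9.27 at 24 h. Rfc3, a clamp loader subunit, read 9.17 and 9.36 at 0 h, 8.11 and 9.40 at 4 h, 8.61 and 8.73 at 8 h, 7.98 and 8.93 at 12 h, and 7.31 and 8.25 at 24 h. Over all arrays of the series its difference of -1.48 passed with the block (limma adjusted p = 0.0058) and not without it (adjusted p = 0.0722). In both genes the replicates at 4, 12 and 24 h stood apart. Tyms, at 5.65 and 5.45 at 0 h and 5.47 and 5.75 at 24 h, was the other member with a 24 h mean above 0 h, and its arrays overlapped.

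**Figure D4:**
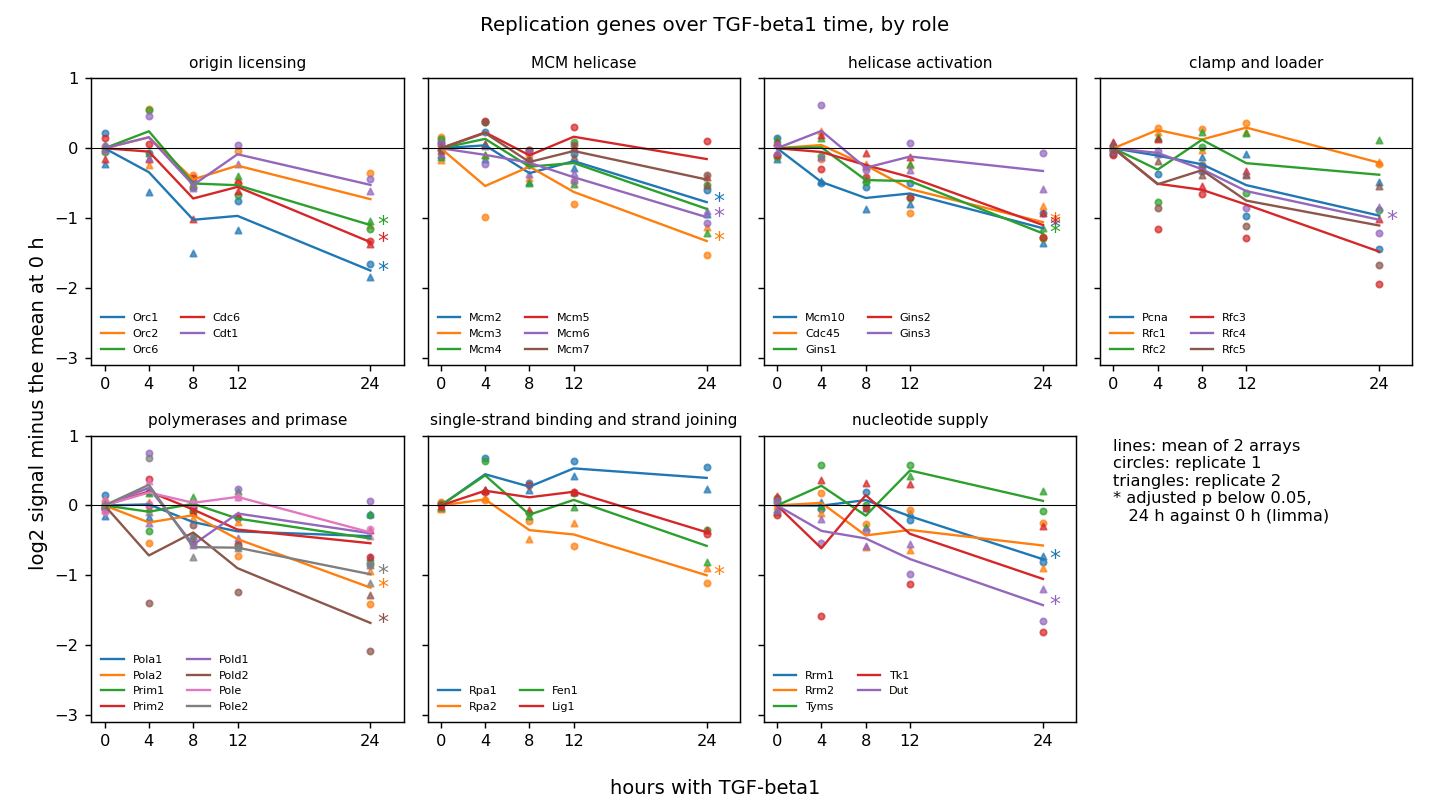
Log2 signal minus the mean at 0 h (y axis) against hours with TGF-β1 (x axis) for the 39 members, 1 panel a role; lines join means of 2 arrays, circles are replicate 1 and triangles replicate 2, and asterisks mark an adjusted p below 0.05 at 24 h. Most lines lie near 0 at 4 h and below it at 24 h, and circles of Tk1, Pold2 and Rfc3 lie far below their triangles at 4, 12 and 24 h.

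Signal at the 5′ end of transcripts was low on 3 arrays of this series, replicate 1 at 4, 12 and 24 h. There the Gapdh control probe sets differed by 2.09 to 2.78 between the 3′ and the 5′ end, against 0.01 to 0.10 on the other 7 arrays. Some members read low on the same 3 arrays. Tk1 read 8.75, 9.21 and 8.52 on them and 10.05 to 10.70 on the other 7, and Rfc3 read 8.11, 7.98 and 7.31 against 8.25 to 9.40. Pold2 read 9.16, 9.32 and 8.47 on them and 9.27 to 10.57 elsewhere. Leaving these 3 arrays out leaves single arrays at 4, 12 and 24 h, so only differences are given here. The difference of Pold2 was then -1.28, that of Rfc3 -1.01 and that of Tk1 -0.29.

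Leaving out 1 array of 0 h or 24 h lowered the 24 h count. The range of the count over all genes under the alternatives is given at the end. Without the first 0 h array 3 members fell (Cdc6, Gins1 and Dut), without the second 6, without the first 24 h array 6, and without the second 15. Cdc6 and Dut passed in each of these 4 fits. The sign was steadier than the call: in each replicate 36 of 39 members were lower at 24 h than at 0 h, and of the 39 probe sets above 5 that were not used for the levels, 33 were lower at 24 h and 22 at 4 h.

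Against 4 h, also a treated group, 16 members were lower at 24 h, where 5.23% of all genes fell. With the block 26 were lower (10.4% of all genes fell), while a fit of those 2 groups alone called no member and no other gene of 12389. Without the first 24 h array 6 members fell, and without the second 5. From 12 h to 24 h no member passed, in a comparison that called 0.0711% of all genes. By unadjusted p below 0.05, 16 members differed, beside 1238 of all 12656 genes. With the block 1 member passed, Gins1 (0.83% of all genes fell). All 39 differences between 12 h and 24 h were below 0, with a median of -0.50. In a moderated F-test over all 5 times 7 members passed, where 9.73% of all genes did, namely Orc6, Cdc6, Mcm6, Gins1, Rpa2, Rrm1 and Dut, and with the block 20 did (20.4% of all genes). The F-test called 0 members without either 0 h array or either 24 h array, and up to 16 without another array.

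Markers of other cell types moved over the same hours. The summed signal of 6 cDC genes was 11.5 to 11.8 at 0 h and 13.2 to 13.7 at 24 h, and that of the 9 granulocyte genes 13.6 to 13.8 and 11.6 to 13.0. Prtn3, of the granulocyte genes, read 13.18 and 13.35 at 0 h, 10.15 and 13.18 at 4 h, and 11.12 and 12.92 at 24 h. The first arrays at 4 and 24 h had low 5′ signal. Ctsg was lower on both 24 h arrays, at 7.06 and 6.72 against 10.86 and 11.67 at 0 h. The part of these cell types in the fall of the replication genes was not tested.

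The falls at 24 h and those in dendritic cells come from different arrays, so the members can be set side by side. Of the 17 members that fell at 24 h, 16 fell in cDC and 17 in pDC, beside 36 of all 39 in each, so this overlap is near what the shares over all members give. Across the 39 members the 24 h difference correlated weakly with the cDC difference (Pearson r = 0.49, Spearman rho = 0.43) and with the pDC difference (r = 0.29, rho = 0.24), and less without Orc1 (r = 0.39 and 0.18). These are descriptions across genes that share arrays within each difference, and genes are not independent replicates. The members were also split by the E2F-type words, with no test of the difference. The 13 with a word had median differences of -1.26 in cDC, -2.46 in pDC and -0.52 at 24 h, and the 20 listed promoters without one -1.49, -2.06 and -0.98.

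Other genes of the pathway were taken from 5 lists. Their counts in cDC and pDC stand beside 29.3% and 31.6% of all genes that fell. Of 9 remaining subunits 5 fell in each. Of 17 fork accessory and chromatin assembly genes 16 were tested, and 13 fell in cDC and 15 in pDC, led by Chaf1b, a histone chaperone subunit, in cDC (-2.59 ± 0.29; limma adjusted p = 0.000685) and Dna2, a flap nuclease, in pDC (-4.03 ± 0.28; adjusted p = 7.75e-05). Of 19 S phase control genes 14 and 16 fell, led by Chek1, the replication checkpoint kinase, at -2.45 and -4.04. Of 9 other nucleotide enzymes 5 fell in each, led by Umps and Cad of pyrimidine synthesis. Umps differed by -2.95 and -4.54 and Cad by -2.88 and -3.73. Of 11 mitosis genes, taken as a comparison, 10 fell in each, with medians of -1.45 and -2.06 beside -1.44 and -2.46 for the members.

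At 24 h of TGF-β1 fewer genes of the lists passed. Over all genes 8.42% fell, and 13.9% with the block. Of the mitosis genes 0 of 11 passed in limma (2 lower with the block), with a median of -0.39 beside -0.87 for the members. By unadjusted p below 0.05, 3 of the 11 differed, beside 3992 of all 12656 genes. With 11 genes, a count of 0 is near the share over all genes, and the difference between lists was not tested. Of the other lists, 2 of 9 remaining subunits, 4 of 17 fork accessory genes, 4 of 19 S phase control genes and 3 of 9 nucleotide enzymes fell. The last were Cad (-1.95 ± 0.30; adjusted p = 0.00397), Ctps (-1.90 ± 0.28; adjusted p = 0.00317) and Shmt1 (-1.65 ± 0.40; adjusted p = 0.0236), which make pyrimidines, CTP and one-carbon units. In cDC 4 genes of these lists rose (Pold4, Dna2, Tk2 and Samhd1), and in pDC 4 (Orc4, Rrm2b, Tk2 and Samhd1). Rb1, the retinoblastoma protein that restrains E2F, was the 1 gene of these lists that rose at 24 h, by 1.36 ± 0.35 (adjusted p = 0.0317).

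**Figure D5:**
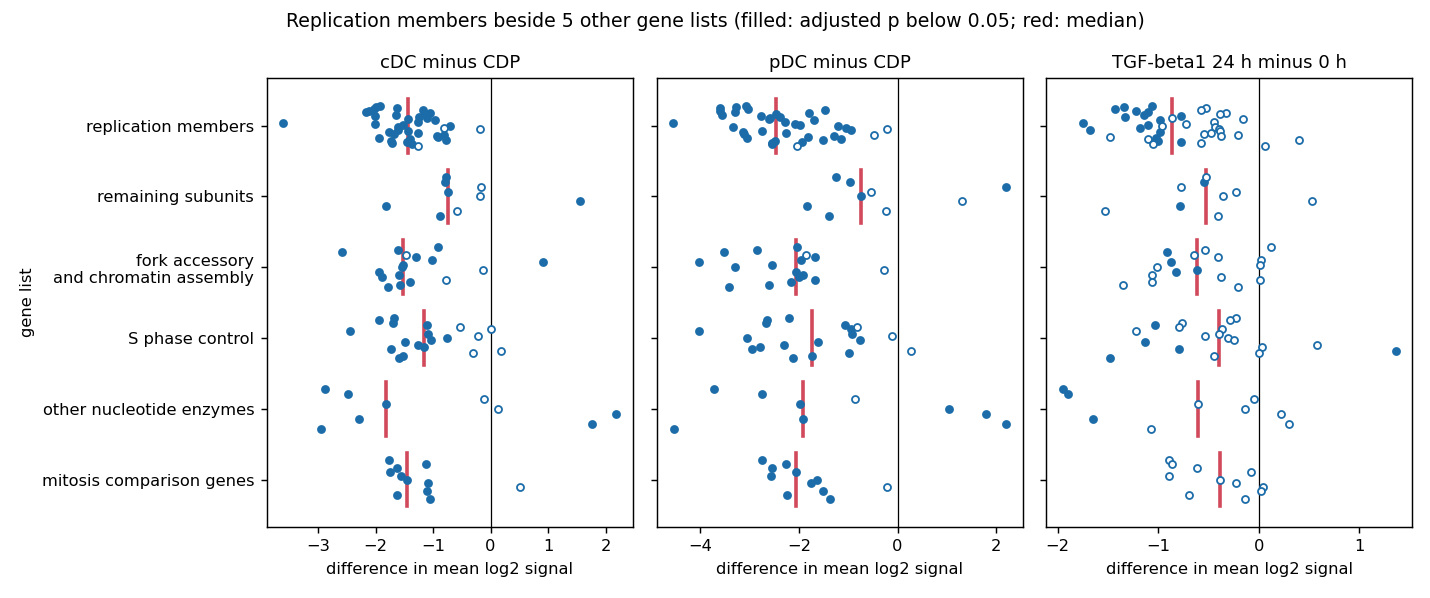
Difference in mean log2 signal (x axes) for each gene of the replication list and of 5 other lists (y axis) in cDC against CDP, pDC against CDP and 24 h against 0 h of TGF-β1; filled points have an adjusted p below 0.05 and red bars are list medians. In the first 2 panels the medians of all 6 lists lie below 0, and in the third the mitosis list has no filled point.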

How the data were processed

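The authors deposited 1 log2 value per probe set and array. GCRMA is named in the submitters' processing notes, with no version given here. The values were used without further scaling. GEO's platform annotation gave 34958 of 45101 probe sets 1 gene symbol and 932 several (not used), and 9211 were not named. All members and lists were chosen with earlier results of these data known. Any member could be named, and of the other lists up to 3 called genes with the largest difference per comparison.

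Tests used limma 3.58.1 in R 4.3.3 (lmFit, eBayes), in separate fits of the 8 one-cycle arrays, these with the 2 in vivo arrays, and the 10 TGF-β1 arrays. Scripts were tested on simulated data. Same-numbered TGF-β1 samples deviated together in all 10 pairs of groups (correlations 0.27 to 0.85), so their numbers were taken as pairing them. The highest correlations, 0.67 to 0.85, were among 4, 12 and 24 h, where replicate 1 had low 5′ signal. The part of that signal in the correlations was not tested. For the one-cycle arrays 3 of 6 pairs exceeded 0.1 (highest 0.58, MPP with CDP), so their numbers were treated only as names. Having 2 arrays a group limits the precision. Alternatives covered scaling, filters, probe set choice, the block, the arrays in a fit and leaving out arrays.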

Additional observations from a re-analysis of the deposited data

How the results depend on the processing

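The fall of the members in cDC and pDC kept its direction and stayed within 1.5 times its count under every alternative, with 24 to 35 members called in cDC and 34 to 35 in pDC when 1 array was left out. For pDC against cDC the 22 members became 11 with no filter on low values, and 8 to 18 when 1 array was left out. In vivo CDP against CDP gave 6 to 15 and against MPP 6 to 8 without 1 array. For CDP against MPP a trended, robust fit called 1 member. At 8 h of TGF-β1 the count of 0 became 2 with the replicate block, 5 in a fit of the 2 groups alone and 5 without the 3 arrays with low 5′ signal, and at 12 h the replicate block gave 3. At 24 h the 17 members became 27 with the replicate block, 28 without those 3 arrays, and 3 to 15 without 1 array. Against 4 h, 16 became 26 with the block, 0 in a fit of the 2 groups alone, and 5 to 16 without 1 array. Against 12 h the block called 1. The F-test over all times called 7, and 20 with the block, 15 without the 3 arrays, and 0 to 16 without 1 array. The causes of these changes were not tested. Over all genes the 24 h count of 2436 was 3807 with the block and 3970 without the 3 arrays, within a range of 936 to 3970 over all alternatives. The count of all genes likewise ranged from 208 to 746 for CDP against MPP (668), 1262 to 2440 for pDC against cDC (2273), 2817 to 4426 for in vivo CDP against CDP (4298), 1 to 1321 at 4 h (82), 41 to 1213 at 8 h (196), 118 to 1603 at 12 h (679), 0 to 3024 for 24 h against 4 h (1625), 0 to 310 against 12 h (9) and 348 to 2952 in the F-test (1232). Of calls on single members, 1 reversed: Rfc2 in vivo against MPP, 0.70, was -0.0021 with the mean of all its probe sets. The replicate number as a block changed no other count of members by more than 1.5 times. Probe sets under about 5 are close to background, which limits what Tyms, Orc1 and Gins2 can show in dendritic cells.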

Other observations

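A few genes around the fork went against the fall of the replication genes in dendritic cells. They were picked after their values were seen, since they were the exceptions in their lists. Dna2, the nuclease that trims Okazaki flaps, had means of 10.49 in CDP, 11.40 in cDC and 6.46 in pDC. It rose in cDC by 0.92 ± 0.28 (SE; limma adjusted p = 0.0317), and pDC minus cDC was -4.94 ± 0.28 (adjusted p = 5.24e-05). Orc4, a subunit of the same origin complex as Orc1, rose in pDC by 2.2 ± 0.20 (adjusted p = 0.000205), to a mean of 11.74 against 9.54 in CDP and 9.37 in cDC. Pold4, the small subunit of polymerase delta, rose in cDC by 1.55 ± 0.52 (adjusted p = 0.0438). Of the nucleotide enzymes, Samhd1, which breaks down dNTPs, rose by 2.18 ± 0.31 in cDC and 1.79 ± 0.31 in pDC (adjusted p = 0.00166 and 0.00278). Tk2, the mitochondrial thymidine kinase, rose by 1.77 ± 0.29 and 2.2 ± 0.29 (adjusted p = 0.00297 and 0.000908). Rrm2b, a p53-inducible small subunit of ribonucleotide reductase, rose in pDC by 1.05 ± 0.30 (adjusted p = 0.0226).

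Of the S phase control genes, 5 of 19 were higher and 3 lower in vivo than in cultured CDP, and of the fork accessory genes 6 of 17 were higher and 1 lower, beside 27.6% of all genes higher and 19.5% lower. The labelling kit differs here too. Uhrf1, which guides DNA methylation at the fork, was higher by 2.06 ± 0.42 (SE; limma adjusted p = 0.00475), and E2f1 by 1.97 ± 0.35 (adjusted p = 0.00265). Ccne2, a cyclin of S phase entry, was lower by a difference of -0.96 ± 0.19 (adjusted p = 0.0046).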
